A study of Mus musculus with 12 samples.

Results

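Genes known as oncogenic transcription factors of T-cell acute lymphoblastic leukemia (T-ALL) were read across primary mouse leukemias and after a short exposure to dexamethasone, a synthetic glucocorticoid. The genes were Lmo1, Lmo2, Tal1, Lyl1, Tlx1, Tlx3, Hhex, Mef2c and Spib, picked by symbol, and all 9 were found among the 38339 genes of the deposited table. The 12 libraries came from the bone marrow of mice that had been transplanted with 6 different primary T-ALLs on a C57BL/6 x 129Sv/Jae F1 background. For each leukemia, 1 moribund recipient was given vehicle (VEH) and 1 was given dexamethasone (DEX), and marrow was taken 4 hours later, so each group held 6 libraries and each leukemia gave a VEH and DEX pair. The 6 leukemias are numbered here as leukemia 1 (73A-46B), leukemia 2 (73M-19A), leukemia 3 (78A-143B), leukemia 4 (2M-127B), leukemia 5 (20M-116B) and leukemia 6 (JW-81-59B). The labels do not give the lesion that started each leukemia, the dose of dexamethasone, or any sort of leukemic cells away from other marrow cells. A difference between leukemias is therefore a difference between single tumours, each seen in a pair of recipients.

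In the normal thymus these factors are active in early progenitors, or not at all, and in human and mouse T-ALL they are switched on abnormally. LMO1 and LMO2 are LIM-only adapters that do not bind DNA themselves; they join the basic helix-loop-helix factors TAL1 or LYL1, their E-protein partners, GATA factors and LDB1 into a single complex. TLX1 and TLX3 are homeobox proteins of other T-ALL subtypes. HHEX is a homeobox factor known to act downstream of LMO2, MEF2C is a MADS-box factor of immature T-ALL, and SPIB is an Ets factor of B cells, plasmacytoid dendritic cells and early thymocytes.

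Levels are given as FPKM, fragments scaled to gene length and to the mapped fragments of the library, as deposited, and differences are on the log2(FPKM + 1) scale, which understates changes of low genes. The summed FPKM ran from 1466471 to 2019058 per library. A depth of 11400000 to 37200000 fragments was estimated for 11 libraries from the FPKM of sparse genes, and no reliable estimate was obtained for the VEH library of leukemia 2. All 15 T-cell markers reached 1 FPKM somewhere and Cd3e, a chain of the T-cell receptor complex, stood between 64.47 and 113.95 FPKM in every library, although leukemia 6 had almost no Cd8a, at 0.50 and 0.30 FPKM in its VEH and DEX libraries. The VEH libraries of leukemias 2 and 1 stood apart by their erythroid marker RNA, with a sum over 14 genes of 1271 and 341 FPKM, against 11.6 to 159 FPKM in the other 10 libraries. In these bulk samples, fewer cells of a type and less RNA per cell cannot be told apart.

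Spib, Lmo1 and Lyl1 are the tested members that differed between leukemias or with dexamethasone, and the bases just upstream of their start sites are shown to place them. Spib was very high in leukemia 6, Lmo1 was high in 4 leukemias, and Lyl1 was the member that fell with dexamethasone. Each sequence is the 250 bases before the RefSeq start site (build GRCm38.p6), written 5' to 3' on the gene's strand, and capitals mark the E-box CANNTG, the motif of basic helix-loop-helix factors such as TAL1 and LYL1. Spib's lies at chr7:44532072-44532321 on the minus strand, that of Lmo1 at chr7:109175208-109175457 on the minus strand, and that of Lyl1 at chr8:84701207-84701456 on the plus strand.
Spib: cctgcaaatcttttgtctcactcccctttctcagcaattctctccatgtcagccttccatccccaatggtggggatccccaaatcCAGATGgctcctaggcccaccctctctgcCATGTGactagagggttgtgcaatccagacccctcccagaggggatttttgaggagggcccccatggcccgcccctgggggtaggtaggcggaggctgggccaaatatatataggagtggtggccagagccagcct
Lmo1: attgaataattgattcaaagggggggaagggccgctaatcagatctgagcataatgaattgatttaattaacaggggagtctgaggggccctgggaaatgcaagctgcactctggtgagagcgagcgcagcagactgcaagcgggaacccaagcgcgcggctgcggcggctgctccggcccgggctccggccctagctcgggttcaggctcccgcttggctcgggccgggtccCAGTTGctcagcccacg
Lyl1: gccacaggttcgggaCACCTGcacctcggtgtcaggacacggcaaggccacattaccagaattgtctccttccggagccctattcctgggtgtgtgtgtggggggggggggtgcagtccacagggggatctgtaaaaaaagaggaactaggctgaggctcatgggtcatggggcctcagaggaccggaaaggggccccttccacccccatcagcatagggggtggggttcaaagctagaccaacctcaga
Spib had 2 E-box matches in this window, and Lmo1 and Lyl1 had 1 each. The pattern CANNTG is its own reverse complement, and 66.2% of 32851 RefSeq promoter windows of the same length held a match, so a match is common. None of the 3 windows held GATAA, the GATA core found on either strand in 22.6% of windows, GGAAGT, an Ets core found in 19.7%, or AGAACA, the core of glucocorticoid response elements found in 16.1%. RefSeq windows were matched for 8 of the 9 genes, with 12 start sites among them, and Lmo2 had no entry in the table used.

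The 9 genes fell into 3 kinds by level. Lmo1, Lmo2, Lyl1 and Spib reached 1 FPKM in at least 10 of the 12 libraries and were tested, out of 12358 genes with at least 1 FPKM in 6 or more libraries. Tal1, Hhex and Mef2c reached 1 FPKM in 1, 4 and 2 libraries and did not pass that filter. Tlx1 and Tlx3 were listed at 0 in 11 libraries.

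**Figure D1:**
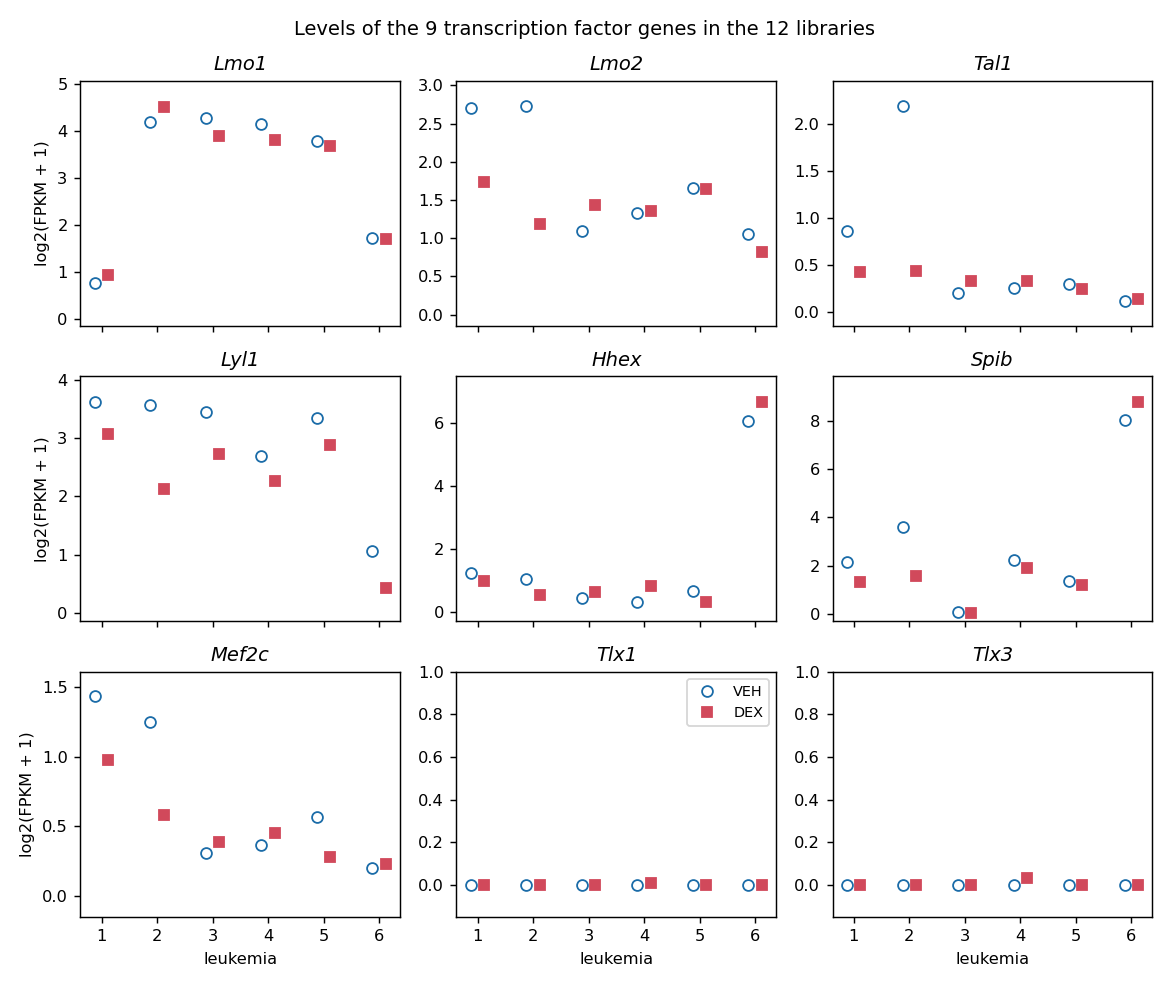
Level of each of the 9 genes, as log2(FPKM + 1) on the vertical axis, in leukemias 1 to 6 on the horizontal axis, with VEH libraries as open circles and DEX libraries as filled squares; the vertical scale differs between panels. Leukemia 6 stands far above the others for Hhex and Spib and lowest for Lyl1, leukemias 2 to 5 are high for Lmo1, and Tlx1 and Tlx3 lie at 0.

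Lmo1, on chromosome 7 (GRCm38, 109138572 to 109175207, minus strand; ENSMUSG00000036111), was the LIM-only adapter with the largest differences among tumours. In the VEH libraries of leukemias 1 to 6 it stood at 0.71, 17.27, 18.43, 16.81, 12.85 and 2.31 FPKM. In the DEX libraries it stood at 0.91, 22.18, 14.08, 12.98, 11.80 and 2.25 FPKM. Leukemias 2 to 5 were thus high in both arms, leukemia 6 was low and leukemia 1 was lowest, and these 3 levels did not overlap. The mean of leukemia 5, the lowest of the 4 high ones, was 5.41 times that of leukemia 6, which in turn was 2.81 times that of leukemia 1. Among the 4 high leukemias, the libraries of 2 and 3 overlapped, as did those of 3 and 4. The difference between leukemias passed the limma F test on the 5 leukemia terms (adjusted p = 5.5e-06), as it did for 51.1% of all tested genes. Its range of leukemia means was 3.51 on the log2 scale, a width that 1.8% of tested genes reached or exceeded.

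The genes around Lmo1 gave little to compare with its low level in leukemia 1. The nearest 3 protein-coding start sites in the table on either side, examined after the Lmo1 values were seen, were those of Stk33, Trim66, Rpl27a, Ric3, Tub and Eif3f, from 91.9 to 344 kb away. Rpl27a and Eif3f, the 2 that were expressed, lay at 0.05 and 0.02 from the median of the other 5 leukemias in leukemia 1 on the log2 scale, while Lmo1 lay at -3.13. The other 4 did not exceed 0.59 FPKM in any library and could not show a fall of that size; Stk33 was listed at 0 in both libraries of leukemia 1 and at 0.04 to 0.49 FPKM elsewhere. Of 12939 genes with a mean of at least 1 FPKM, ranked by how far leukemia 1 lay below every other leukemia, Lmo1 took place 29.

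Lmo2, the second LIM-only adapter (chromosome 2, 103957986 to 103981878, plus strand; ENSMUSG00000032698), was low in most libraries. Its VEH values for leukemias 1 to 6 were 5.54, 5.64, 1.15, 1.52, 2.17 and 1.09 FPKM. Its DEX values were 2.35, 1.27, 1.72, 1.55, 2.11 and 0.76 FPKM. Only the VEH libraries of leukemias 1 and 2 exceeded 3 FPKM, and their own DEX partners lay within or just above the range of the other leukemias. Across leukemias Lmo2 did not pass the limma F test (adjusted p = 0.127; 0.0358 without leukemia 2). In leukemia 1 the 2 adapters stood in opposite places: its mean Lmo2 level, 3.95 FPKM, was the highest of the 6, and its mean Lmo1 level, 0.81 FPKM, the lowest.

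The helix-loop-helix partner Lyl1 (chromosome 8, 84701457 to 84704715, plus strand; ENSMUSG00000034041) was expressed in 5 leukemias and low in leukemia 6. The VEH values were 11.34, 10.94, 9.94, 5.49, 9.18 and 1.10 FPKM. The DEX values were 7.37, 3.36, 5.63, 3.82, 6.38 and 0.35 FPKM. Both libraries of leukemia 6 lay below every other library, and leukemia 4, the next lowest, had a mean 6.42 times higher. The other 5 leukemias formed a series in which each overlapped its neighbour. The limma F test between leukemias gave an adjusted p of 0.000285 with a range of leukemia means of 2.59, and without leukemia 6 the range was 0.86 and the call was lost (adjusted p = 0.104).

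Tal1, the paralog of Lyl1 (chromosome 4, 115056426 to 115071755, plus strand; ENSMUSG00000028717), was near the bottom of the measured range. It was at 0.81, 3.55, 0.15, 0.19, 0.23 and 0.09 FPKM with vehicle, and at 0.34, 0.36, 0.26, 0.26, 0.18 and 0.10 FPKM with dexamethasone. The VEH library of leukemia 2 was the only one above 1 FPKM. With genes above 0 in any library tested, Tal1 did not pass between leukemias (limma F test, adjusted p = 0.367).

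Hhex (chromosome 19, 37434810 to 37440731, plus strand; ENSMUSG00000024986) was high in leukemia 6 alone. It stood there at 65.92 FPKM with vehicle and 102.35 FPKM with dexamethasone. In the other 5 leukemias it ran from 0.26 to 1.38 FPKM, so the lower library of leukemia 6 exceeded the highest other library 47.8 times. With genes above 0 in any library tested, the limma F test between leukemias gave an adjusted p of 0.00031 and a range of leukemia means of 5.88, second to Spib among the members.

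Spib (chromosome 7, 44525993 to 44532071, minus strand; ENSMUSG00000008193) had the widest range of the 9 genes. Its VEH values for leukemias 1 to 6 were 3.44, 11.15, 0.07, 3.78, 1.59 and 264.92 FPKM. Its DEX values were 1.55, 1.96, 0.04, 2.82, 1.33 and 437.68 FPKM. Leukemia 6 was far above the rest, with a mean 53.6 times that of the next leukemia, and leukemia 3 was far below, with a mean of 0.055 FPKM that was 26.5 times lower than the next. The range of leukemia means was 8.34 on the log2 scale, seventh of the 12358 tested genes (limma F test, adjusted p = 3.15e-05). Among 12939 genes with a mean of at least 1 FPKM, the gap of leukemia 6 above the highest other leukemia was the sixth largest for Spib, at 5.83.

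Leukemia 6 was thus the tumour with high Spib and Hhex and low Lyl1. Lmo1, lowest in leukemia 1, was also low there, at 2.31 and 2.25 FPKM. Lmo2, Tal1 and Mef2c had their lowest leukemia mean there too, but were low in most libraries. They did not pass between leukemias (limma F test, adjusted p = 0.127, 0.367 and 0.0554). For Tal1 and Mef2c this was with genes above 0 in any library tested. SPIB is known in B cells and plasmacytoid dendritic cells, and markers of both were read beside it. In leukemia 6 the B-cell genes Pax5 and Cd79a were at 0.00 to 0.05 and 0.26 to 0.30 FPKM, and Siglech of plasmacytoid dendritic cells at 0.00 and 0.02 FPKM. By contrast, Blk and Ighm of the B-cell list were expressed in leukemia 6, at 16.05 and 18.49 FPKM and at 164.39 and 135.46 FPKM. The rest of the plasmacytoid list went both ways in leukemia 6. Tcf4 was at 0.13 and 0.12 FPKM, Ccr9 at 42.65 and 30.59 FPKM and Lair1 at 1.14 and 0.38 FPKM. Each of these lay below every library of the other leukemias. Irf8 was at 2.10 and 1.51 FPKM, against 2.00 to 12.05 FPKM elsewhere. Bst2 was at 30.81 and 36.35 FPKM and Cox6a2 at 2.99 and 7.11 FPKM. Both were at their highest of the 12 libraries in the DEX library of leukemia 6. The whole B-cell list, 10 of 12 genes of which reached 1 FPKM in some library, summed to 182.7 and 155 FPKM there, within the 55.3 to 521 FPKM of the other libraries, and was made up mostly of Ighm. The plasmacytoid list, with 9 of 10 genes reaching 1 FPKM, summed to 212 and 241 FPKM in leukemia 6, within the range of the others, and was mostly Ly6d and Ccr9. The part of these cells in the level of Spib was not tested.

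**Figure D2:**
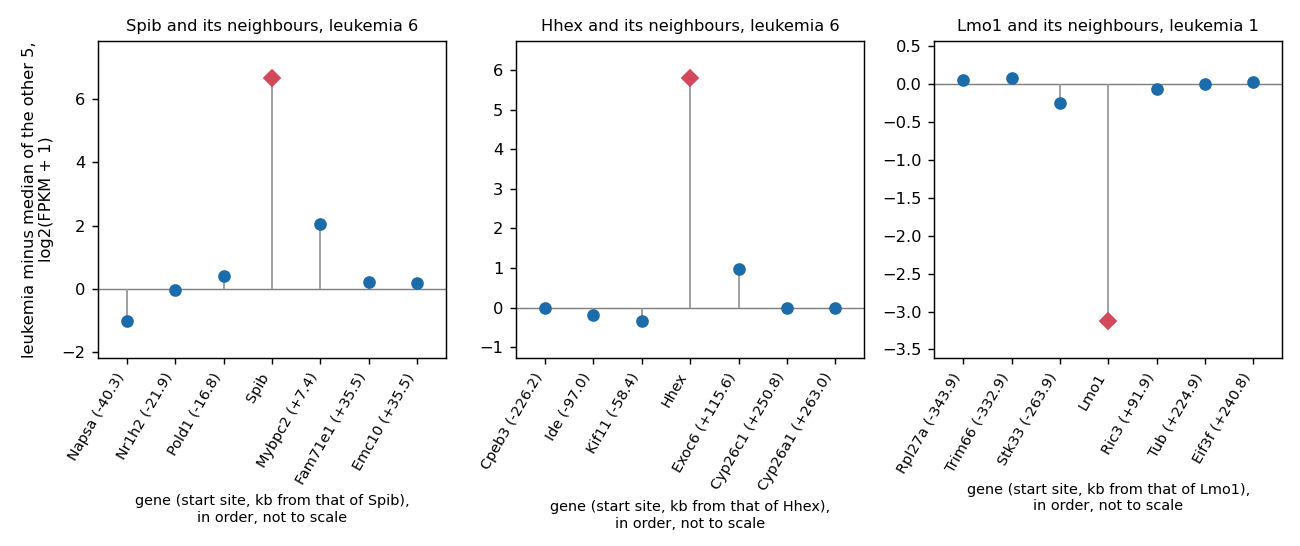
Each panel shows 1 leukemia's mean minus the median of the other 5 leukemias, on the log2(FPKM + 1) scale, for a member (diamond) and the 3 nearest protein-coding start sites on each side (circles), in order along the gene's strand with the distance in kb in brackets. Spib and Hhex stand above their neighbours in leukemia 6, with Mybpc2 and Exoc6 the highest of the neighbours, and Lmo1 lies at -3.13 in leukemia 1, where 4 of its 6 neighbours are under 0.6 FPKM in every library.

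The genes around Spib and Hhex were examined in leukemia 6 after those values were seen, and no test was made. Next to Spib, Mybpc2, a myosin-binding protein gene of muscle whose start site lies 7.42 kb downstream, was at 1.56 and 6.56 FPKM in leukemia 6 and at no more than 0.36 FPKM in any other library. The other 5 neighbours, Pold1, Nr1h2, Napsa, Fam71e1 and Emc10, lay between -1.03 and 0.42 of the median of the other leukemias. Next to Hhex, the exocyst gene Exoc6, 115608 bp downstream, was at 17.85 and 16.25 FPKM in leukemia 6 against 5.64 to 10.86 FPKM elsewhere, a difference of 0.98. The remaining neighbours of Hhex lay between -0.35 and 0.00, of which Cpeb3, Cyp26c1 and Cyp26a1 did not exceed 0.45 FPKM in any library. Spib and Hhex themselves lay at 6.67 and 5.80, above each of their neighbours. Mybpc2 lay at 2.04 on this scale, which understates the change of so low a gene.

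Mef2c (chromosome 13, 83504034 to 83667080, plus strand; ENSMUSG00000005583) was low throughout. It was at 1.72, 1.38, 0.24, 0.29, 0.48 and 0.15 FPKM with vehicle and at 0.97, 0.49, 0.31, 0.37, 0.21 and 0.17 FPKM with dexamethasone. Leukemias 1 and 2 were the highest, and their libraries did not overlap those of the other 4, but the margin was narrow. The lowest of their libraries was at 0.49 FPKM and the highest of the others at 0.48 FPKM. The limma F test with genes above 0 in any library gave an adjusted p of 0.0554.

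Tlx1 (chromosome 19, 45150680 to 45156943, plus strand; ENSMUSG00000025215) and Tlx3 (chromosome 11, 33200752 to 33203589, minus strand; ENSMUSG00000040610) were not detected above a trace. Each was listed at 0 in 11 libraries and at 0.01 and 0.02 FPKM in the DEX library of leukemia 4. Over the estimated depths, 1 fragment would amount to 0.0135 to 0.0441 FPKM for Tlx1 and 0.0194 to 0.0634 FPKM for Tlx3. The higher values are those of the shallowest library, at 11400000 fragments, and the DEX library of leukemia 4 was estimated at 30200000. Tlx1os, the antisense gene that overlaps Tlx1, was listed at 0.07 FPKM in that library and at 0 elsewhere.

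Other T-ALL transcription factor oncogenes outside the 9 were mostly silent too. Of 19 listed genes, 2 passed the filter: Spi1, an Ets factor of myeloid cells and early thymocytes, and Zeb2, a zinc finger repressor. The other 17 included Tal2, Lmo3, Hoxa9 and Hoxa10, of which none was above 0.26 FPKM in any library. Zeb2 and Spi1 differed between leukemias (limma F test, adjusted p = 0.0104 and 0.00657), as did 51.1% of all tested genes. Both were highest in leukemia 1, at 9.76 and 14.16 FPKM with vehicle. Leukemia 1 also had the highest sum of granulocyte and monocyte markers, 9151 and 5345 FPKM, whose part in this difference was not tested.

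Dexamethasone changed 1 of the 4 tested members. Lyl1 fell, and none rose, against 13.6% of all tested genes that changed and 9.28% that fell. Lyl1 was at 8.0 ± 3.97 FPKM with vehicle and 4.49 ± 2.53 FPKM with dexamethasone (mean ± SD, n = 6), and it was lower with dexamethasone in 6 of 6 leukemias. The mean difference was -0.71 ± 0.14 on the log2 scale (moderated SE; limma, adjusted p = 0.0126), and the 6 differences ran from -0.43 in leukemia 4 to -1.45 in leukemia 2. Within each leukemia the fall of Lyl1 lay among the lower tail of the tested genes, with between 1.33% and 9.22% of them falling further. The call depended on the pairing and on the number of leukemias: without the leukemia block the adjusted p was 0.681, with leukemias 2, 5 and 6 alone it was 0.0749 and with leukemias 1, 3 and 4 alone 0.0298 (limma). These sets were fitted apart because both libraries of leukemias 1, 3 and 4 carry an S number in their names and 1 library of each other leukemia does not; the labels do not say what it marks. Without leukemias 1 and 2, an alternative chosen after seeing the data, the difference was -0.56 (limma, adjusted p = 0.0556), and with genes above 0 in any library tested the adjusted p was 0.0646.

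**Figure D3:**
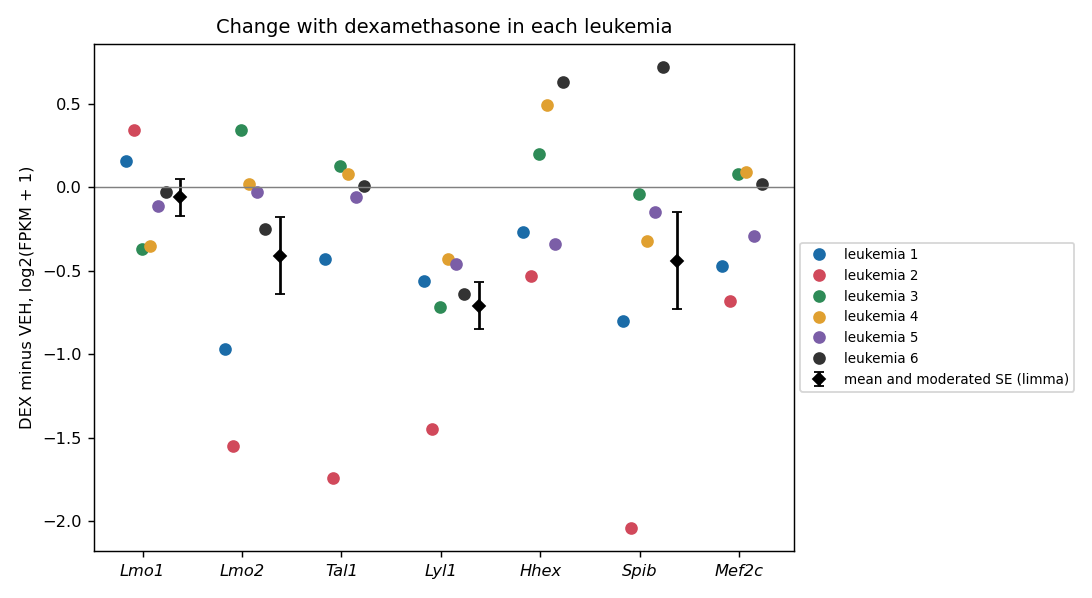
DEX minus VEH on the log2(FPKM + 1) scale for 7 members in each of the 6 leukemias (coloured circles), with the mean and moderated SE from limma (black diamonds) for the 4 tested genes. All 6 leukemias lie below 0 for Lyl1, the differences of Lmo1 scatter around 0, and leukemia 2 (red) has the lowest value for Lmo2, Tal1, Lyl1, Hhex, Spib and Mef2c.

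Lmo1, Lmo2 and Spib did not pass the test. Lmo1 was nearly level, at 11.4 ± 7.90 FPKM with vehicle and 10.7 ± 7.96 FPKM with dexamethasone, a difference of -0.06 ± 0.11 (limma, adjusted p = 0.751), with 2 leukemias higher and 4 lower. Lmo2 stood at 2.85 ± 2.16 and 1.63 ± 0.574 FPKM, a difference of -0.41 ± 0.23 (limma, adjusted p = 0.274). Leukemias 1 and 2 gave most of that difference, with -0.97 and -1.55, and without them it was 0.02. Spib differed by -0.44 ± 0.29 (limma, adjusted p = 0.342), was lower in 5 leukemias and was higher in leukemia 6 alone.

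In leukemia 6, where Spib and Hhex were abundant, both were higher with dexamethasone. The differences were 0.72 for Spib and 0.63 for Hhex, and 2.96% and 4.00% of tested genes had larger ones in that pair, whose median gene lay at -0.09. This is a single pair of recipients, so the difference has no replicate. Over all 6 leukemias Hhex differed by 0.03 (genes above 0 in any library tested, limma, adjusted p = 0.932). Of the genes below the filter, Tal1 differed by -0.33 and Mef2c by -0.21 on average, each with 3 leukemias higher and 3 lower, and neither passed when all genes above 0 were tested (limma, adjusted p = 0.554 and 0.437).

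The falls of Lmo2, Tal1 and Mef2c in leukemias 1 and 2 went with falls in RNA of other marrow cells. Erythroid markers summed to 341 and 92.7 FPKM in the VEH and DEX libraries of leukemia 1, and to 1271 and 159 FPKM in those of leukemia 2. Over the other leukemias the erythroid sum was 11.6 to 53.9 FPKM with vehicle and 18.5 to 43.0 FPKM with dexamethasone. TAL1 and LMO2 are also factors of normal red cell precursors. The B-cell factor Pax5 was likewise highest in the VEH libraries of leukemias 2 and 1, at 5.14 and 2.59 FPKM. It was at 0.96 FPKM or less in all others. The sum of the whole B-cell list was highest in the VEH library of leukemia 2 but did not single out leukemia 1. With vehicle it was 131.47 FPKM in leukemia 1, below the 265.86, 164.12 and 182.69 FPKM of leukemias 4, 5 and 6. Blk and Ighm made up most of these sums. Granulocyte and monocyte markers were lower with dexamethasone in 5 leukemias and not only in leukemias 1 and 2. Their sum went from 9151 to 5345 FPKM in leukemia 1 and from 4616 to 1634 in leukemia 2. It went from 2375 to 2259 FPKM in leukemia 4 and from 3619 to 2476 in leukemia 5. In leukemia 6 it went from 3815 to 1486 FPKM. It went from 2310 to 3332 FPKM in leukemia 3. Of the 14 genes, Ltf and Cebpe fell (limma, adjusted p = 0.034 and 0.0265) and 12 did not pass, against 9.28% of all tested genes that fell. Lyl1 was lower in all 6 leukemias. The part of these cells in the values of Lmo2, Tal1, Mef2c, Lyl1 and Spib was not tested.

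Megakaryocytes and endothelial cells also use some of these factors, and most of their markers were low. The megakaryocyte markers, 4 of 8 of which reached 1 FPKM, summed to 4.49 to 13.6 FPKM over the 12 libraries. Endothelial markers summed to 48.4 to 76.9 FPKM, with 2 of 9 genes reaching 1 FPKM. These 2, Pecam1 at 29.40 to 55.78 FPKM and Egfl7 at 6.84 to 25.03 FPKM, made up most of that sum. In leukemia 6, Hbb-bs was at 2.33 and 4.29 FPKM while Epor, the erythropoietin receptor, was at 10.30 and 13.07 FPKM, against no more than 1.63 FPKM in the other libraries.

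**Figure D4:**
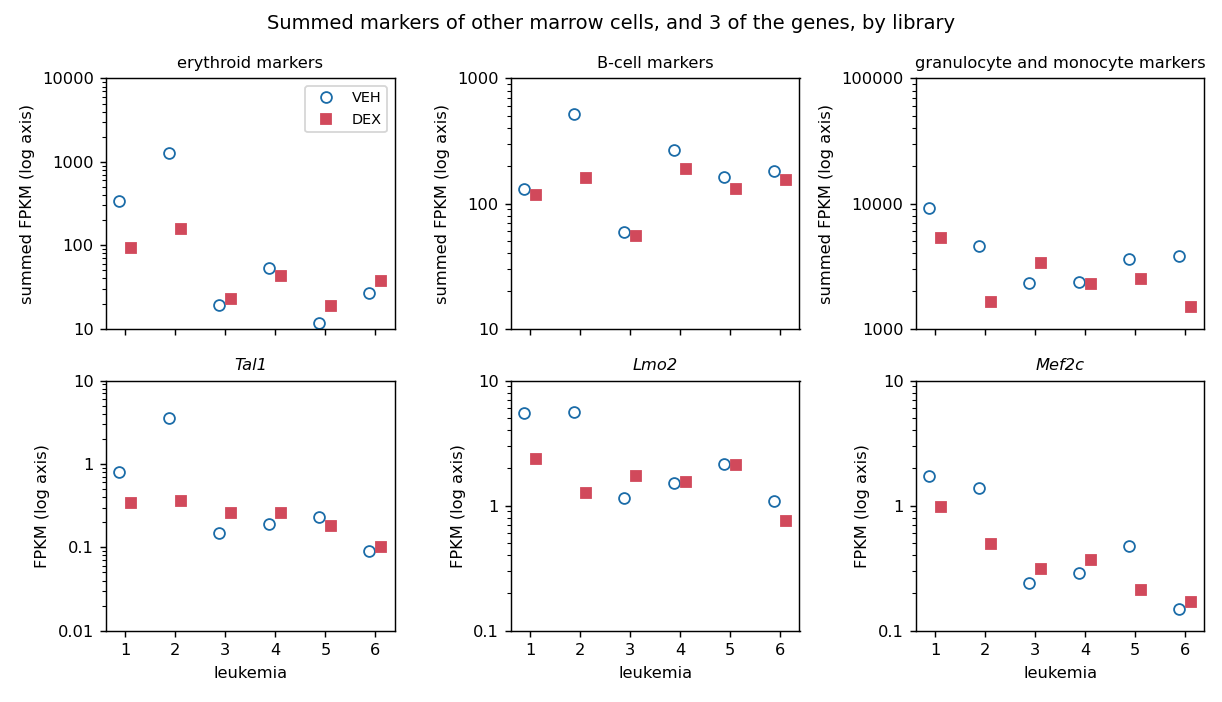
Upper row, summed FPKM of the erythroid (14 genes), B-cell (12 genes) and granulocyte and monocyte (14 genes) marker lists, and lower row, FPKM of Tal1, Lmo2 and Mef2c, on log axes, in leukemias 1 to 6 with VEH as open circles and DEX as filled squares. The VEH libraries of leukemias 1 and 2 are highest in the erythroid list and in all 3 genes, and the VEH library of leukemia 2 is also highest in the B-cell list.

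The partners with which LMO, TAL1 and LYL1 proteins form complexes were read as a list. Of 15 listed partners 14 were tested, of which 1 rose, 4 fell and 9 did not pass, against 13.6% of all tested genes that changed and 9.28% that fell. The median difference was -0.18 against -0.05 over all tested genes. Lmo4, a further LIM-only adapter, was the most abundant of its family per length and rose in 6 of 6 leukemias, from 109 ± 62.4 to 182 ± 83.3 FPKM, a difference of 0.82 ± 0.09 (limma, adjusted p = 0.00179). Gata3, the GATA factor of T cells, fell from 19.2 ± 8.72 to 7.80 ± 2.06 FPKM, a difference of -1.13 ± 0.12 (limma, adjusted p = 0.00151). Cbfa2t3, a corepressor of the complex, fell by 1.05 from 6.41 ± 1.65 to 2.71 ± 1.45 FPKM (limma, adjusted p = 0.0126). The transcription factors Myb and Runx1 fell by 0.57 and 0.63 (limma, adjusted p = 0.00844 and 0.0128). These 4 falls were each seen in 6 of 6 leukemias, as was the fall of Lyl1, and the 5 partner calls held with any 1 leukemia left out. Without leukemias 1 and 2, an alternative chosen after seeing the data, Lmo4 and Gata3 kept their calls and Myb, Cbfa2t3 and Runx1 lost theirs (limma, adjusted p = 0.0851, 0.0772 and 0.0690), at -0.45, -0.79 and -0.59. Those 3 calls were also lost with leukemias 2, 5 and 6 only (limma, adjusted p = 0.0678, 0.0728 and 0.0749). Cbfa2t3 and Runx1 lost theirs with genes above 0 in any library tested (limma, adjusted p = 0.0734 and 0.0630), and Runx1 with leukemias 1, 3 and 4 only (limma, adjusted p = 0.0630). Ldb1, the bridging protein, stood at 91.0 ± 18.2 and 75.9 ± 14.1 FPKM and did not pass (-0.26 ± 0.12, limma, adjusted p = 0.192).

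**Figure D5:**
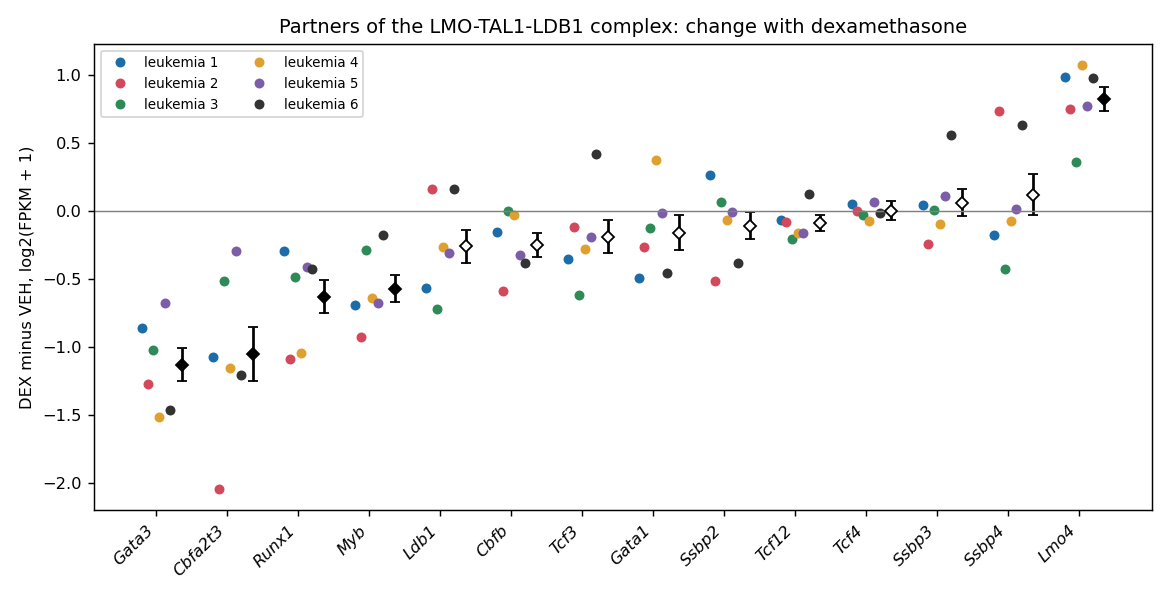
DEX minus VEH on the log2(FPKM + 1) scale for the 14 tested partners of the complex, in each leukemia (coloured circles) and as the limma mean with its moderated SE (diamonds, filled where the adjusted p is under 0.05). Gata3, Cbfa2t3, Runx1 and Myb lie below 0 and Lmo4 above 0 in all 6 leukemias.

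Between leukemias, 9 of the 14 partners passed the limma F test, near the 51.1% of all tested genes. Tcf4, an E-protein partner of TAL1 and LYL1, had the widest range: it was at 0.13 and 0.12 FPKM in leukemia 6 and at 5.31 to 26.83 FPKM elsewhere. Ssbp3, which stabilises LDB1, was highest in leukemia 6, at 100.83 and 148.51 FPKM against 57 FPKM or less elsewhere. Lmo4 was lowest in leukemia 1, at 29.06 and 58.39 FPKM, the tumour in which Lmo1 was lowest too. Gata1, the erythroid GATA factor, was at 0.53 and 0.55 FPKM in leukemia 5 and 0.56 and 1.20 FPKM in leukemia 1, and at 2.23 to 5.25 FPKM in the other leukemias.

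Genes of immature progenitors and described targets of these factors also differed between tumours. Kit, the stem cell factor receptor, was highest in leukemia 1 at 18.89 and 11.72 FPKM and lowest in leukemia 6 at 0.25 and 0.07 FPKM. Cd44, an adhesion receptor of early thymocytes, was at 3.34 and 1.25 FPKM in leukemia 6 and at 13.11 to 85.71 FPKM elsewhere. Of 10 progenitor genes 5 were tested, and all 5 differed between leukemias, against 51.1% of all tested genes. Flt3, a cytokine receptor, was the only one of the 5 to change with dexamethasone, against 13.6% of all tested genes. It rose by 0.46 ± 0.10, in 6 of 6 leukemias (limma, adjusted p = 0.0198). That call was lost without leukemia 1, 4 or 5, at differences of 0.45 to 0.49 (limma, adjusted p = 0.0508 to 0.0590). With genes above 0 in any library tested it was lost too (limma, adjusted p = 0.0727). So it was with leukemias 1, 3 and 4 only and with leukemias 2, 5 and 6 only (limma, adjusted p = 0.0976 and 0.194). Without leukemias 1 and 2, an alternative chosen after seeing the data, the adjusted p was 0.0860 (limma). Nfe2 and Igf1r were the other 2 with the widest ranges, 1.44 and 1.21.

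Of 13 described targets of TAL1 or TLX factors, 10 were tested, 3 fell and none rose, the 3 being Gata3, Myb and Runx1 of the partner list; 9 differed between leukemias. Over all tested genes 9.28% fell and 51.1% differed between leukemias. Rag2 and Rag1, which cut T-cell receptor genes, were low in leukemia 6: Rag2 was at 0.52 and 0.17 FPKM there against 3.04 to 37.27 FPKM elsewhere. Rag1 was at 37.97 and 17.65 FPKM in leukemia 6 and at 29.73 and 27.10 FPKM in leukemia 4, against 91.96 to 214.78 FPKM in the rest. The ranges of leukemia means were 4.02 for Rag2, 2.74 for Ptcra, the pre-T-cell receptor chain, 2.72 for Rag1 and 1.87 for Arid5b, a TAL1 target.

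The MEF2 family was carried by other members than Mef2c. Mef2a and Mef2d stood at 19.3 ± 5.09 and 24.5 ± 5.92 FPKM with vehicle, while Mef2c was at 0.710 ± 0.668 FPKM. Of 9 genes of the family and its repressors 7 were tested, 3 fell and none rose, against 9.28% of all tested genes that fell. Mef2a fell by 0.30 (limma, adjusted p = 0.0336, lower in 5 of 6 leukemias). The class IIa deacetylases Hdac7 and Hdac5, which bind and repress MEF2 proteins, fell by 0.49 and 0.54 (limma, adjusted p = 0.00847 and 0.0269). The call of Mef2a was lost without leukemia 1, 2, 4, 5 or 6 and that of Hdac5 without leukemia 1, 3, 4 or 5, with differences of -0.31 to -0.28 and -0.55 to -0.46 and adjusted p of 0.0603 to 0.0979 (limma). Both were also lost with median-of-ratios factors (limma, adjusted p = 0.0686 and 0.0537). The call of Hdac7 held with any 1 leukemia left out. It was lost with leukemias 2, 5 and 6 only (limma, adjusted p = 0.117). Without leukemias 1 and 2, an alternative chosen after seeing the data, it was lost too (limma, adjusted p = 0.0923). Between leukemias 6 of the 7 differed, against 51.1% of all tested genes, with Nr4a1, Hdac4, Hdac7 and Hdac5 the widest, at 1.38, 1.27, 1.20 and 1.17.

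Over the 12 libraries, the genes most like each tested member were sought among 3647 tested genes whose leukemia means spanned at least 1 on the log2 scale, by Pearson r as a description. Most like Spib were Tmed5, a cargo receptor of the secretory pathway, Ccdc18 and the runt factor Runx2, with r of 0.973, 0.970 and 0.965. Tmed5 and Ccdc18 lie 254 bp apart on chromosome 5 and were both highest in leukemia 6, at 106.23 and 116.30 FPKM and at 153.35 and 121.47 FPKM. Runx2 stood at 24.23 and 40.76 FPKM in leukemia 6 and at no more than 2.99 FPKM elsewhere. These values rest on leukemia 6, whose libraries were the highest for all 4 genes.

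Most like Lyl1 were Nbeal2, Mthfd2l and Treml2, with r of 0.961, 0.961 and 0.946. Mthfd2l, a mitochondrial folate enzyme, was listed at 0 in both libraries of leukemia 6 and at 1.86 to 4.13 FPKM elsewhere. Most like Lmo1 were the T-cell receptor segment Trav14d-1, the deubiquitinase Usp44 and Cyb561, with r of 0.929, 0.921 and 0.918. Most like Lmo2 were Zeb2, Mzb1 and Prss34, with r of 0.922, 0.918 and 0.918. All 3 of these were highest in the VEH libraries of leukemias 1 and 2, where Lmo2 was highest.

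Pairs of members described together in immature T-ALL were compared over the 6 leukemia means. Of 6 pairs, none passed an exact permutation test over 720 pairings after adjustment over the pairs. Tal1 and Lmo2 had r = 0.706 (exact permutation p = 0.110, adjusted 0.267) and rho = 0.886 (p = 0.0333, adjusted 0.2), and r was 0.791 without leukemias 1 and 2. Lmo2 and Lyl1 had r = 0.740 (exact permutation p = 0.0750, adjusted 0.267) and rho = 0.714 (p = 0.136, adjusted 0.272). Their r was 0.131 without leukemias 1 and 6, 0.71 without leukemia 1 alone and 0.54 without leukemia 6 alone. Each r without 2 leukemias rests on the few that remain. Those left out were the 2 farthest from the median of the pair's first gene. Mef2c and Lyl1 had r = 0.571 (exact permutation p = 0.237, adjusted 0.356) and rho = 0.714 (p = 0.136, adjusted 0.272), and r was 0.881 without leukemias 1 and 2. The 3 pairs with Hhex could not be read over all tumours, since leukemia 6 stood apart from the other 5.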

How the data were processed

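RNA-seq was made from marrow of 12 recipient mice after red cell lysis, using a TruSeq stranded kit for total RNA and paired reads of 100 bp, per the labels' protocols. The deposited table holds FPKM per gene and library, made by the authors. The submitters' processing notes name mm10, Bowtie2, RSEM and edgeR without saying which made the values, and the strand setting of counting is not given in the sources used here. Genes on the opposite strand overlap Lmo1, Lmo2, Lyl1 and Tlx1. Of these, 4931422A03Rik (over Lmo2) ran from 0.47 to 2.06 FPKM and Nfix (over Lyl1) from 0.13 to 1.55 FPKM, and their reads may not be separated from those of the members.

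Values were analysed as log2(FPKM + 1) with limma 3.58.1 in R 4.3.3: leukemia as a block plus treatment, empirical Bayes with a trend, 5 residual degrees of freedom, two-sided, Benjamini-Hochberg adjustment over all 12358 tested genes (at least 1 FPKM in at least 6 libraries), threshold 0.05. The block was checked: same-leukemia libraries correlated at 0.551 to 0.817 across genes after group means were removed, and different leukemias at -0.340 to 0.205. The scripts were tested on simulated data. Each leukemia arm was 1 mouse, so p-values measure the spread between leukemias or between such mice. Positions are from GENCODE M21 (GRCm38), to which 37607 gene IDs matched. Depth was estimated from the FPKM steps of sparse genes, and the number of fragments limits low values.

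Members and lists were chosen with earlier results of these data known. Named genes are the members and, from each list, up to 4 past the threshold with the smallest p and up to 4 with the widest range of leukemia means, plus the 3 genes most like each tested member. Lmo4's family, neighbours, Ldb1, Mef2d and marker genes were chosen after values were seen or for their bearing on a member. Some listed genes are not reported here. Alternatives covered the pseudocount, filter, scaling, variance model, block and libraries used.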

Additional observations from a re-analysis of the deposited data

Results flagged for a closer look

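In groups of 6 libraries or differences, the lowest and highest values of 7 members were compared with the rest by the ratio of the gap to the nearest value over the whole range, on the log2 scale. Of 21 groups 8 exceeded Dixon's critical value for 6 values, which chance passes in about 1 in 20 groups.

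Leukemia 6 accounted for 5 of the 8. It was highest for Hhex with vehicle (ratio 0.84) and with dexamethasone (0.90), and highest for Spib with dexamethasone (0.78). It was lowest for Lyl1 with vehicle (0.64) and with dexamethasone (0.64).

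Leukemia 2 accounted for the other 3. Tal1 was highest in its VEH library (0.65), and its DEX minus VEH difference was the lowest of the 6 for Tal1 (0.70) and for Lyl1 (0.71). That VEH library also held the most erythroid and B-cell marker RNA, whose part in these values was not tested.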

How the results depend on the processing

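Of 12358 tested genes 1675 changed (528 higher, 1147 lower). The count was 551 with all genes above 0 tested, 911 with leukemias 1, 3 and 4 only, 445 with leukemias 2, 5 and 6 only, and 233 without leukemias 1 and 2 (added after seeing the data), each with fewer samples or more genes tested. Leaving out 1 leukemia gave 658 to 1574 genes: 750 without leukemia 1, 1106 without 2, 881 without 4 and 658 without 5. Without the replicate block the count was 81. The split of higher and lower calls moved with the scaling, from 528 and 1147 to 268 and 1844 as TPM, which moved the median of all genes to -0.16, to 683 and 718 with median-of-ratios factors and to 651 and 843 with quantile normalization.

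Lyl1 stayed negative under every alternative run, from -0.77 to -0.56 with 1 leukemia left out. It lost the call with all genes above 0 tested (-0.71), without the replicate block (-0.71), with leukemias 2, 5 and 6 only (-0.85) and without leukemias 1 and 2 (-0.56). The block changed no other member's call, and without it none of the 9 genes of the partner, progenitor, target and MEF2 lists that had passed did so. Members that had not passed changed sign as follows: Lmo1 to 0.07 with leukemias 2, 5 and 6 only and to 0.00 without leukemia 3 (-0.14 to 0.00 over the left-out leukemias), and Lmo2 and Spib to 0.02 and 0.05 without leukemias 1 and 2. With 1 leukemia left out, Lmo2 ran from -0.55 to -0.18 and Spib from -0.67 to -0.12.

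The count of genes that differed between leukemias, 6321, was 4011 without the treatment term, 3964 with leukemias 2, 5 and 6 only, and 4666 to 6707 with 1 leukemia left out. The range of leukemia means then ran from 0.86 to 2.59 for Lyl1, losing the call without leukemia 6, and from 0.95 to 1.29 for Lmo2, gaining it without leukemia 2. Lmo1 ran from 2.65 to 3.51 and Spib from 2.51 to 8.34, and both kept their calls in every alternative run, with ranges of 2.38 to 4.44 and 2.02 to 11.11 over all of them. Of the member pairs, Tal1 and Lmo2 passed in VEH libraries only (r = 0.84) and Lmo2 and Lyl1 in DEX libraries only (r = 0.96). Under quantile normalization Mef2c and Lyl1 gave -0.01 and Mef2c and Hhex 0.18. With 1 leukemia left out, r ran from -0.70 to 0.87 for Lmo2 and Hhex, -0.97 to 0.48 for Lyl1 and Hhex, -0.49 to 0.97 for Mef2c and Hhex, 0.54 to 0.88 for Lmo2 and Lyl1, 0.45 to 0.70 for Mef2c and Lyl1 and 0.64 to 0.94 for Tal1 and Lmo2. Where no reason is given, the cause was not tested.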
